A study of Homo sapiens with 6 samples.

Results

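Transcripts of 10 cytokine genes were followed in the brain metastatic breast cancer cell line 231-BR and its parent MDA-MB-231: the interleukin-1 ligands IL1A and IL1B, the IL-6 family ligands IL6, IL11 and LIF, the receptor chain IL6ST that those 3 ligands share, the colony-stimulating factors CSF1, CSF2 and CSF3, and IL24 of the IL-10 family. The genes were taken from a fixed list of symbols, which was drawn up with earlier results of these data known, and all 10 were found among the 17039 genes of the expression table. MDA-MB-231 is a triple-negative human breast cancer line, and 231-BR is a variant of it that homes to brain. The descriptions name no engineered allele and no other treatment, and both lines were grown in DMEM with fetal bovine serum and penicillin-streptomycin. The 231-BR medium also held the antibiotic G418 and the MDA-MB-231 medium did not. The 231-BR cells were a gift from another laboratory, and the MDA-MB-231 cells were bought from ATCC. The effects of G418, of the source of the cells and of the line therefore cannot be told apart. Each line was represented by 3 libraries of poly(A) RNA and by a single line of origin, and nothing says that the 3 came from separate cultures, so the errors and p-values measure the spread between these libraries, which may be technical. The cell line field of the descriptions counts upward within each line (231-BR, 232-BR, 233-BR) while titles and cell types name 2 lines, and the libraries were grouped by title.

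Interleukin-1 alpha and beta bind a common receptor and switch on NF-kB and AP-1, the transcription factors that in turn drive many cytokine genes, IL6, CSF2 and CSF3 among them. IL-6, IL-11 and LIF each bind a different receptor chain and then recruit gp130, the product of IL6ST, which signals through JAK kinases and STAT3. The colony-stimulating factors M-CSF, GM-CSF and G-CSF, encoded by CSF1, CSF2 and CSF3, drive the growth and maturation of macrophages and granulocytes, and tumour cells that secrete them can act on the myeloid cells around them.

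The unit is FPKM, a count of sequenced fragments divided by transcript length and by the mapped total of the library, so levels of different genes are compared per length. The summed FPKM was 465020 to 472007 in the 231-BR libraries and 486937 to 496420 in the MDA-MB-231 libraries, and 10785 to 11178 genes reached 1 FPKM. Log2 values of libraries of the same line correlated at 0.996 or more and those of different lines at 0.934 or less, across genes, which are not independent replicates. Read counts were not used here, so the depth behind each value is unknown. Of the markers of a triple-negative line, VIM was at 2553 FPKM in 231-BR and 2306 FPKM in MDA-MB-231 and KRT18 at 273 and 352 FPKM, while the means of ESR1 were 0.927 and 0.79 FPKM, those of PGR 0.06 and 0.0267 FPKM and those of ERBB2 9.88 and 4.95 FPKM. The 7 leukocyte markers in the file summed to 0.44 to 0.74 FPKM in 231-BR and 0.65 to 1.33 FPKM in MDA-MB-231, and the 6 fibroblast and endothelial markers to 0.96 to 1.05 and 1.14 to 1.24 FPKM, with no marker of either list at a mean of 1 FPKM. PTPRC, which encodes the pan-leukocyte antigen CD45, was at 0 in every MDA-MB-231 library and at 0.02, 0.04 and 0.01 FPKM in the 231-BR libraries. Of the leukocyte markers 2 were tested. FCER1G was lower in 231-BR, with means of 0.08 FPKM there and 0.477 FPKM in MDA-MB-231 (log2 fold change -1.69, limma adjusted p = 2.5e-03). LYZ, at 0.33 and 0.437 FPKM, was not called, but was called lower under quantile normalization (-0.72). These are bulk values, in which fewer cells expressing a gene and less RNA per cell cannot be told apart.

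All 10 genes were lower in 231-BR cells. In each of them the 3 libraries of 231-BR lay below the 3 of MDA-MB-231, an order that 33.5% of the 13465 genes tested also showed. All 10 had an adjusted p under 0.05 in the limma fit across these genes, against 32.9% of genes tested that were called lower and 44.4% that were called higher. A decrease past 1 on the log2 scale was found for 8 of the 10, against 4.34% of all genes, IL6ST and IL24 being the exceptions. Their median log2 fold change was -2.72, beside 0.08 for all genes tested, and 5 of them (IL1A, IL1B, IL6, CSF3 and CSF2) were among the 100 lowest log2 fold changes. Fold changes are on the scale of log2(FPKM + 0.1), which understates the change of genes at low levels. An exact permutation test of a single gene cannot go below p = 0.1 with 3 libraries against 3, so the statements on single genes rest on the adjusted p of the fit over all genes.

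**Figure D1:**
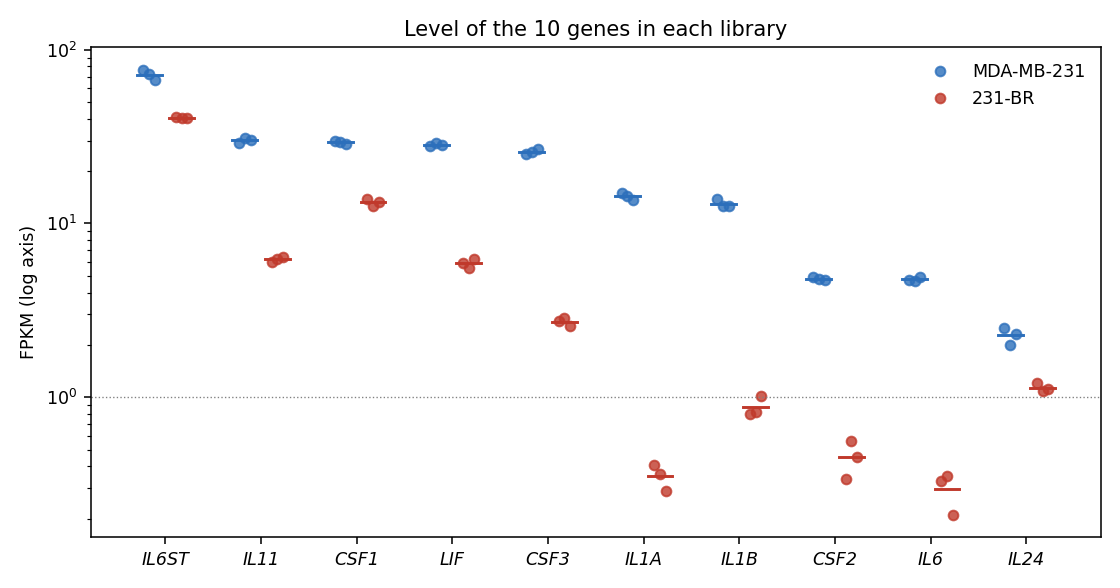
FPKM of the 10 genes (log axis) in each of the 3 MDA-MB-231 libraries (blue) and the 3 231-BR libraries (red), with a bar at the mean and genes ordered by their level in MDA-MB-231. The red points of every gene lie below its blue points, and IL1A, IL1B, CSF2 and IL6 have a mean under 1 FPKM (dotted line) in 231-BR alone.

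The summed level of the 9 ligands, all genes but IL6ST, was 31.2 ± 0.695 FPKM in 231-BR and 152.9 ± 0.75 FPKM in MDA-MB-231 (mean ± SD, n = 3 libraries each, as in all values below). Its make-up differed between the lines. CSF1 made up 42.4% ± 1.2 of the sum in 231-BR and 19.2% ± 0.34 in MDA-MB-231. IL1A and IL1B together made up 3.95% ± 0.16 in 231-BR and 17.9% ± 0.82 in MDA-MB-231. IL11 and LIF together held 38.9% ± 1.1 in 231-BR and 38.2% ± 0.99 in MDA-MB-231, shares whose difference was smaller than their SDs. Every ligand had a mean of at least 1 FPKM in MDA-MB-231, whereas 4 of the 9 fell under that level in 231-BR.

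Among the 10 genes the order of levels also differed. In MDA-MB-231 cells IL6ST was highest, followed by IL11, CSF1 and LIF, then CSF3, then IL1A and IL1B, then CSF2 and IL6, and IL24 was lowest. The libraries of IL11 and CSF1, of CSF1 and LIF, of IL1A and IL1B, and of CSF2 and IL6 overlapped in that order. In 231-BR cells the order was IL6ST, CSF1, IL11, LIF, CSF3, IL24, IL1B, CSF2, IL1A and IL6, with overlap between IL11 and LIF, between CSF2 and IL1A, and between IL1A and IL6. IL24 thus moved from the lowest level of the 10 to the sixth place, above both interleukin-1 genes. The order is that of the FPKM means and was not tested.

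**Figure D2:**
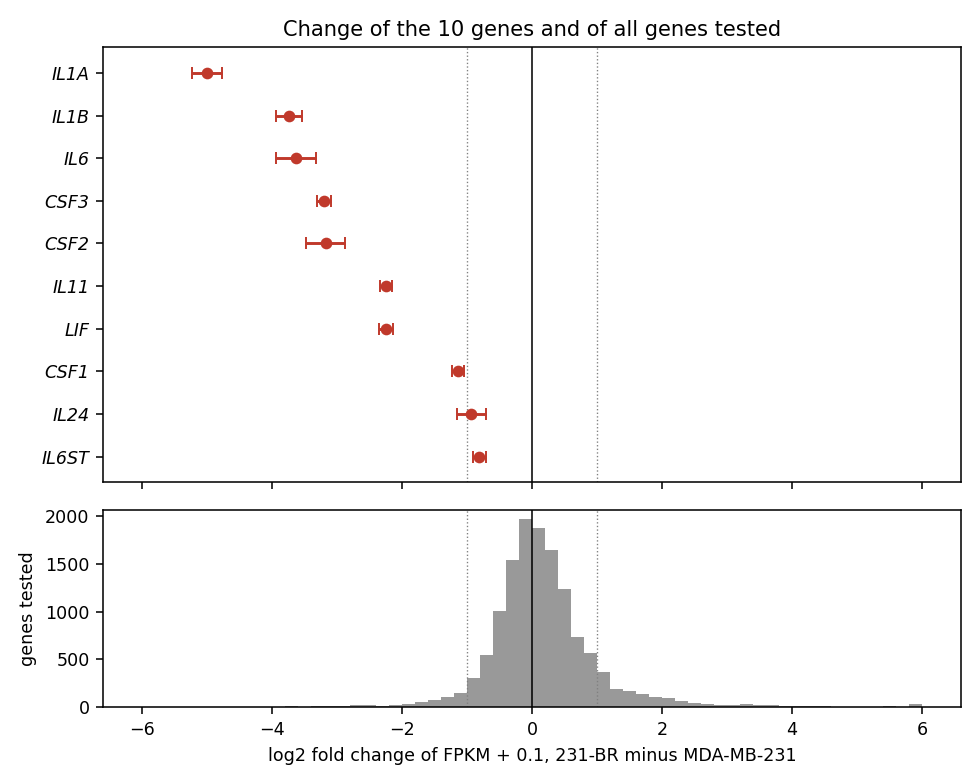
Log2 fold change of FPKM + 0.1, 231-BR minus MDA-MB-231, for the 10 genes with 95% confidence intervals (top) and, on the same axis, the number of all genes tested in bins of that fold change (bottom, the outermost bars also holding every gene beyond 6 or -6). Dotted lines mark -1 and 1. All 10 intervals lie below 0, from -5.00 for IL1A to -0.82 for IL6ST.

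IL1A, which encodes the interleukin-1 alpha that is active as its membrane-bound or released precursor, had the largest decrease of the set. It had 0.41, 0.36 and 0.29 FPKM in the 231-BR libraries and 15.04, 14.29 and 13.69 FPKM in the MDA-MB-231 libraries. The mean of 0.353 ± 0.0603 FPKM in 231-BR was 2.46% of the 14.3 ± 0.676 FPKM in MDA-MB-231. The groups were far apart, with every 231-BR library under 0.5 FPKM and every MDA-MB-231 library over 13. The log2 fold change was -5.00 (SE 0.101, 95% confidence interval -5.23 to -4.77, limma adjusted p = 7.5e-11), which placed IL1A at rank 14 from the lowest of all genes tested. With a pseudocount of 1 it was -3.50.

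IL1B encodes interleukin-1 beta, which is cut to its active form by caspase-1. Its libraries held 0.80, 0.82 and 1.02 FPKM in 231-BR and 13.75, 12.62 and 12.66 FPKM in MDA-MB-231. No library of one line came near the range of the other. IL1B fell to 6.76% of its parental mean, with a log2 fold change of -3.75 (SE 0.090, 95% confidence interval -3.95 to -3.55, limma adjusted p = 2.4e-10), or -2.90 with a pseudocount of 1. IL1A decreased more than IL1B, since the ratio of IL1A to IL1B was 1.08 to 1.13 within the MDA-MB-231 libraries and 0.284 to 0.512 within the 231-BR libraries.

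The 2 genes are neighbours on chromosome 2 of GRCh38, both transcribed from the minus strand, IL1A at chr2:112773915-112784590 and IL1B at chr2:112829751-112836903 by the GENCODE 29 annotation, with their lower ends 56 kb apart. Of the 10 genes, 7 had a promoter in the RefSeq table (GRCh38.p14), a window of 300 bases from 250 before to 50 after the annotated start. LIF, CSF1 and CSF3 were not in it. The windows were searched on both strands for the kappaB motif of NF-kB, for TGANTCA of AP-1, for TTNNGNAA of C/EBP, for TATAAA and for the GC box GGGCGG. These were held by 11.3%, 7.71%, 36.8%, 11.5% and 45% of all 35116 promoters. The kappaB pattern was GGGRNNYYCC, where R is A or G, Y is C or T and N is any base. In the windows printed here only the GC boxes of IL11 overlap each other, and a match is only a run of letters. The promoters of the 2 interleukin-1 genes are shown because they carry the largest decreases of the set.
IL1A promoter, chr2:112784351-112784650, minus strand: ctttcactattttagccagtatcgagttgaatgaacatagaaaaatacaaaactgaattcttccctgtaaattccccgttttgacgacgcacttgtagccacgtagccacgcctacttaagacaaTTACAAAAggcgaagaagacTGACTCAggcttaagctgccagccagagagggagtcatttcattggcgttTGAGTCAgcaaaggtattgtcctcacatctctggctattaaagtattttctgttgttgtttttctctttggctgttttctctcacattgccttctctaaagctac
IL1B promoter, chr2:112836730-112837029, minus strand: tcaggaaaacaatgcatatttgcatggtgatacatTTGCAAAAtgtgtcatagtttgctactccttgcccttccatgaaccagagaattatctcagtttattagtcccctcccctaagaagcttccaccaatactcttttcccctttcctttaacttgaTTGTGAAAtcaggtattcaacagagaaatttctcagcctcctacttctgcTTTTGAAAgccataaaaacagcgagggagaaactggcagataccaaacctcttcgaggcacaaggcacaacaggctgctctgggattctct
In IL1A the capitals mark a C/EBP motif that begins 125 bases before the start and the AP-1 motifs, which begin 105 and 55 bases before it. A second annotated start of IL1A lies upstream, and its window, chr2:112784444-112784743, shares this C/EBP motif and these AP-1 motifs. That window also holds another C/EBP motif and TATAAA, which begin 199 and 239 bases before its start. In IL1B the capitals mark C/EBP motifs, which begin 215, 91 and 41 bases before the start. Neither window held a kappaB match.

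IL6 encodes interleukin-6, an inducer of the acute phase response and a growth factor for many tumour cells. It had 0.33, 0.35 and 0.21 FPKM in the 231-BR libraries and 4.73, 4.64 and 4.95 FPKM in the MDA-MB-231 libraries. The lowest of the 10 levels in 231-BR was that of IL6, at 0.297 ± 0.0757 FPKM, beside 4.77 ± 0.159 FPKM in the parent. The groups did not overlap, and the SD in 231-BR was large for its mean. The log2 fold change was -3.64 (SE 0.139, 95% confidence interval -3.95 to -3.33, limma adjusted p = 6.2e-09), the SE being the largest of the 10 genes, and it was -2.16 with a pseudocount of 1. IL6 lies at chr7:22725884-22732002 on the plus strand, where the annotation places the coding gene STEAP1B and an antisense transcript on the opposite strand. Whether the counting used strand is not given in the sources used here, so reads of overlapping genes cannot be told apart.

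IL11 encodes interleukin-11, known from platelet formation and from bone-destroying breast cancer metastases. Its 231-BR libraries held 6.01, 6.26 and 6.39 FPKM and its MDA-MB-231 libraries 28.94, 31.08 and 30.19 FPKM. The 2 ranges were narrow and well apart. The mean fell from 30.1 ± 1.08 to 6.22 ± 0.193 FPKM, with a log2 fold change of -2.26 (SE 0.041, 95% confidence interval -2.35 to -2.16, limma adjusted p = 4.5e-11).

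LIF encodes leukemia inhibitory factor, which acts on many tissues through the LIF receptor. The 231-BR libraries held 5.93, 5.56 and 6.28 FPKM and the MDA-MB-231 libraries 27.95, 29.13 and 28.15 FPKM. LIF and IL11 had nearly the same level and the same change. The log2 fold change of LIF was -2.24 (SE 0.048, 95% confidence interval -2.35 to -2.14, limma adjusted p = 1.1e-10), and the ratio of IL11 to LIF was 1.01 to 1.13 in 231-BR libraries and 1.04 to 1.07 in MDA-MB-231 libraries. The genes are on different chromosomes, LIF at chr22:30240447-30246851 and IL11 at chr19:55364389-55370463, both on the minus strand. LIF overlaps 2 annotated antisense genes, LIF-AS1 being one of them.

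The promoters of IL6 and IL11 are printed to set a kappaB promoter beside an AP-1 and GC-rich one in the same ligand family.
IL6 promoter, chr7:22726950-22727249, plus strand: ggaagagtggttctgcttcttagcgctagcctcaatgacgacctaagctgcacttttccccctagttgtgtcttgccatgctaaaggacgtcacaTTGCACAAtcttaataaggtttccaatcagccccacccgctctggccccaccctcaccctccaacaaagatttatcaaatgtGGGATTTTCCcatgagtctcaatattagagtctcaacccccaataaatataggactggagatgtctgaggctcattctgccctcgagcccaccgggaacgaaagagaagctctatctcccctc
IL11 promoter, chr19:55370414-55370713, minus strand: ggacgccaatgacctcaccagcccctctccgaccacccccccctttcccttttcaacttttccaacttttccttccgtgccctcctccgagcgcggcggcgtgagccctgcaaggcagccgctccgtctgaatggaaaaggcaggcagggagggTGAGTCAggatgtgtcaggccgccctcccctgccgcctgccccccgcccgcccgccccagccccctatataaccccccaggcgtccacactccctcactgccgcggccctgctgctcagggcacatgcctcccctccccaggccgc
In IL6 the capitals mark a C/EBP motif that begins 155 bases before the start and the kappaB motif that begins 73 bases before it. In IL11 they mark the AP-1 motif that begins 96 bases before the start, and in lower case the window also holds 4 GC boxes on its other strand. The IL6 window has 7 CpG dinucleotides and the IL11 window 19, beside a median of 14 over all promoters. Among the 7 genes with a window, kappaB was held by 2 (IL6 and IL6ST) and AP-1 by 2 (IL1A and IL11). C/EBP was held by 4 (IL1A, IL1B, IL6 and IL24), the GC box by 2 (IL11 and IL6ST) and TATAAA by 1 (IL1A, in its second window). CSF2 had no match to any of the 5 patterns. Only exact matches were counted, so a site that differs from a pattern by a single base was missed, and a lack of matches does not show a lack of sites. No motif was common to all 7.

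IL6ST, the gp130 chain, had the highest level of the 10 and, at the pseudocount of 0.1, the smallest change. With a pseudocount of 1 the smallest was that of IL24 (-0.61, beside -0.80 for IL6ST). It had 41.14, 40.59 and 40.36 FPKM in the 231-BR libraries and 76.74, 71.97 and 66.77 FPKM in the MDA-MB-231 libraries. The 231-BR libraries were tightly grouped and the MDA-MB-231 libraries more spread, without overlap. The mean in 231-BR was 56.7% of that in MDA-MB-231, a log2 fold change of -0.82 (SE 0.044, 95% confidence interval -0.92 to -0.72, limma adjusted p = 6.7e-08). IL6ST lies at chr5:55935095-55994993 on the minus strand, overlaps 3 annotated genes on the opposite strand and has a processed pseudogene, IL6STP1, whose reads could be shared with it. Its promoter window was the most CpG-rich of the 7, with 36 CpG, more than 87.3% of all promoters had.

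CSF1, which encodes M-CSF, the growth factor of macrophages, kept the highest level of any ligand in 231-BR. Its libraries held 13.80, 12.56 and 13.35 FPKM in 231-BR and 29.94, 29.30 and 28.82 FPKM in MDA-MB-231. The level fell to 45.1% of that in the parent, without overlap, with a log2 fold change of -1.14 (SE 0.040, 95% confidence interval -1.23 to -1.05, limma adjusted p = 3.2e-09). CSF1 was also picked by the study from a protein interaction network of the genes that differed in these same libraries, so its presence there is not independent evidence of its direction. It is at chr1:109910242-109930992 on the plus strand.

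CSF2 encodes GM-CSF, which acts on granulocyte and macrophage precursors. It had 0.34, 0.56 and 0.45 FPKM in the 231-BR libraries and 4.90, 4.80 and 4.75 FPKM in the MDA-MB-231 libraries. CSF2 thus left 9.34% of the parental level, with no overlap between the lines. The log2 fold change was -3.18 (SE 0.135, 95% confidence interval -3.48 to -2.88, limma adjusted p = 1.2e-08), or -2.01 with a pseudocount of 1. The gene is at chr5:132073790-132076170 on the plus strand.

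CSF3 encodes G-CSF, the main growth factor of neutrophils. Its libraries held 2.74, 2.86 and 2.57 FPKM in 231-BR and 25.18, 25.84 and 26.68 FPKM in MDA-MB-231. In the parent CSF3 stood almost level with CSF1, the ratio of CSF1 to CSF3 being 1.08 to 1.19 in its libraries, whereas in 231-BR the ratio was 4.39 to 5.19. The log2 fold change of CSF3 was -3.20 (SE 0.051, 95% confidence interval -3.32 to -3.09, limma adjusted p = 1.9e-11), the smallest adjusted p of the 10 genes. CSF3 is at chr17:40015361-40017813 on the plus strand.

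IL24, a cytokine of the IL-10 family that signals through IL-20 receptors, was the least expressed of the 10 in MDA-MB-231. It had 1.2, 1.09 and 1.12 FPKM in the 231-BR libraries and 2.51, 2.0 and 2.31 FPKM in the MDA-MB-231 libraries. The groups did not overlap, but the spread in MDA-MB-231, an SD of 0.257 FPKM, was wide beside the difference. The mean in 231-BR was 50% of that in MDA-MB-231, a log2 fold change of -0.94 (SE 0.10, 95% confidence interval -1.16 to -0.71, limma adjusted p = 1.2e-05). The confidence interval includes -1, and IL24 passed that fold under 3 of the alternatives, among them leaving out MDA-MB-231 replicate 2 (-1.02). The gene is at chr1:206897443-206904139 on the plus strand.

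The mRNAs of many cytokines are short-lived, and the pentamer ATTTA, repeated in the 3 prime UTR, is an element by which some decay factors bind them. In GENCODE 29, with 1 transcript for each of 19158 genes, 64.4% of 3 prime UTRs held at least 1 ATTTA and the median was 1.41 per kb. Every one of the 10 genes was above that median, from 1.86 per kb in CSF1 to 25.2 per kb in CSF2. CSF2 was denser than 99.9% of genes, IL6 (14 per kb) than 99.3%, IL1B (9.84 per kb) than 98.3% and CSF3 (8.2 per kb) than 97.4%. The longer element TTATTTATT was in 7.51% of genes and in 4 of the 10, with 6 copies in IL11, 3 in CSF2 and 2 each in IL1B and LIF. The 30 bases with the most ATTTA are shown for 4 of the 10 UTRs, with each ATTTA in capitals and the letters as in the DNA sense strand. These are not the 4 densest UTRs. IL6 was denser per kb than IL1B, IL11 and CSF3, but its best 30 bases hold only 2 ATTTA. Whether these stretches set the lifetime of the transcripts was not tested.
CSF2 3 prime UTR, bases 220 to 249: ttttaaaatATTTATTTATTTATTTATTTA
IL1B 3 prime UTR, bases 329 to 358: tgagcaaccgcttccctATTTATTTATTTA
IL11 3 prime UTR, bases 27 to 56: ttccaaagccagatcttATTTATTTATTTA
CSF3 3 prime UTR, bases 16 to 45: tcccatgtATTTAtctctATTTAatATTTA
Overlapping pentamers were counted singly, so the CSF2 stretch holds 5 and each of the others 3. Of the remaining genes, IL11 had 5.56 per kb, IL1A 4.34, IL6ST 3.84, IL24 3.72 and LIF 2.18 per kb. LIF was denser than 62.3% of genes and CSF1 than 57.2%. The lifetimes of these mRNAs were not measured.

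The other genes of the same pathways moved in both directions. Of the 28 further genes listed for the interleukin-1 family, 19 could be tested, of which 7 were lower, 9 were higher and 3 were not called, beside 32.9% lower and 44.4% higher over all genes tested, so the shares were near the background. The median log2 fold change was 0.07. Under quantile normalization 10 were lower and 9 higher and the median was -0.13, and under median-of-ratios scaling 8 were lower and 9 higher with a median of -0.01. The calls over all 13465 genes tested moved as well. They were 5749 lower and 4825 higher with a median of -0.06 under quantile normalization. Under median-of-ratios scaling they were 5142 lower and 5294 higher with a median of 0.001. The lower genes include IL1RL2, named here for its low level, which passed the filter only through MDA-MB-231. It was at 0 FPKM in every 231-BR library and at 0.18, 0.36 and 0.28 FPKM in the MDA-MB-231 libraries. IL18, an interleukin-1 family ligand that induces interferon gamma, moved opposite to IL1A and IL1B. It had 75.2 ± 1.43 FPKM in 231-BR and 6.07 ± 0.342 FPKM in MDA-MB-231, a log2 fold change of 3.61 (SE 0.043, limma adjusted p = 4.6e-12). The signalling receptor IL1R1 was higher in 231-BR, at 1.27 FPKM beside 0.597 FPKM (log2 fold change 0.98, limma adjusted p = 9.8e-06), and its partner chain IL1RAP was slightly lower, at 5.93 beside 7.34 FPKM (-0.30, limma adjusted p = 3.9e-04). The interleukin-18 receptor gene IL18R1 rose from 0.32 to 1.11 FPKM, and SIGIRR, an inhibitory receptor, rose from 1.11 to 2.22 FPKM. The interleukin-18 inhibitor IL18BP was at 2.96 and 3.11 FPKM and was not called, but was called lower under quantile normalization (-0.35, limma adjusted p = 8.3e-04). Among the 7 adaptors and kinases 3 were lower and 3 higher, and the kinase gene IRAK2, which is induced by NF-kB and was singled out after its values were seen, had 1.85 FPKM in 231-BR and 8.29 FPKM in MDA-MB-231 (-2.10, limma adjusted p = 5.9e-09).

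**Figure D3:**
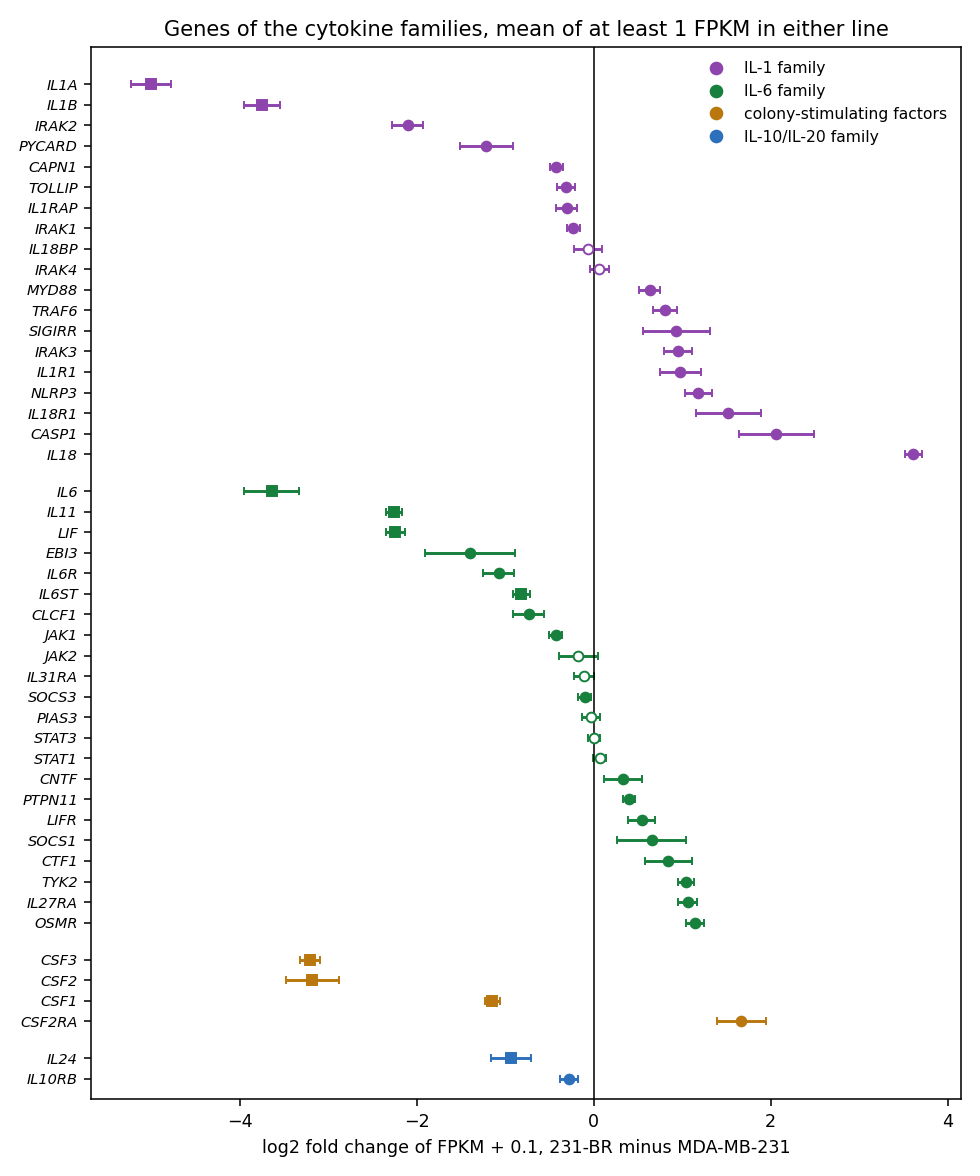
Log2 fold change of FPKM + 0.1 with its 95% confidence interval for the genes of the 4 cytokine families that had a mean of at least 1 FPKM in either line. Squares are the 10 genes described here, circles are other listed genes, and filled symbols have an adjusted p under 0.05. The squares are all left of 0, while the circles lie on both sides, with IL18 the farthest to the right at 3.61.

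In the IL-6 family, 20 of the 24 further listed genes were in the file and 19 were tested, of which 6 were lower, 8 higher and 5 not called, again near the shares over all genes, with a median log2 fold change of 0.01. Median-of-ratios scaling gave 8 lower and 8 higher with a median of -0.07, and quantile normalization 8 lower and 6 higher with a median of -0.05. Over all 13465 genes tested these scalings gave 5142 lower and 5294 higher, and 5749 lower and 4825 higher. Other ligands were split. CLCF1, which signals through the ciliary neurotrophic factor receptor, was at 8.26 ± 0.384 and 13.9 ± 1.62 FPKM in 231-BR and MDA-MB-231 (log2 fold change -0.73, limma adjusted p = 1.1e-05). EBI3, a subunit of IL-27 and IL-35, was also lower (-1.40, limma adjusted p = 2.6e-04), while CTF1, which encodes cardiotrophin, was higher (0.85, limma adjusted p = 9.5e-05). The receptors that pair with gp130 went different ways. The IL-6 receptor gene IL6R fell from 2.71 to 1.24 FPKM (-1.07, limma adjusted p = 6.9e-07), whereas OSMR, which forms the oncostatin M receptor with gp130, rose from 11.7 ± 0.731 to 26.0 ± 0.426 FPKM (1.14, limma adjusted p = 7.7e-09). LIFR, the receptor chain for LIF, rose from 2.83 to 4.16 FPKM (0.54, limma adjusted p = 3.2e-05), and IL27RA rose from 5.16 to 10.9 FPKM (1.06, limma adjusted p = 2.1e-08). Thus IL6 and its receptor were both lower, while LIF was lower and LIFR higher. STAT3 itself, singled out after its values were seen, was at 35.0 FPKM in 231-BR and 34.9 FPKM in MDA-MB-231 (limma adjusted p = 0.85).

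Of the 9 further genes listed with the colony-stimulating factors, 6 were in the file and only CSF2RA, the GM-CSF receptor alpha chain, passed the filter. It was higher in 231-BR, at 2.06 ± 0.167 FPKM beside 0.583 ± 0.095 FPKM (log2 fold change 1.67, limma adjusted p = 7.0e-07). CSF1R, named after its values were seen because it is the receptor of M-CSF, had a mean of 0.0267 FPKM in 231-BR and 0.103 FPKM in MDA-MB-231 and was below the filter. Of the 11 further genes of the IL-10 and IL-20 family, 3 were tested, all receptor chains. Of these IL10RB was lower (-0.28), and both others were higher but lost their call under quantile normalization.

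A list of 21 genes of the NF-kB, C/EBP and AP-1 pathways, which holds the transcription factors that act on cytokine promoters and 3 inhibitors of NF-kB (NFKBIA, NFKBIE and TNFAIP3), held 13 that were lower, 7 that were higher and 1 that was not called, with a median log2 fold change of -0.40, beside the 32.9% and 44.4% of all genes tested. The 3 inhibitors were all among the 13. The NF-kB group stood lowest, with 8 of 9 genes lower, none higher, and a median of -1.36. Of these genes 5 were past -1, beside 4.34% of all genes tested. The group kept its counts of 8 lower and 0 higher under both other scalings. Over all 13465 genes tested, median-of-ratios scaling gave 5142 lower and 5294 higher, and quantile normalization 5749 lower and 4825 higher. This list was drawn up with earlier results of these data known. NFKBIA, which encodes the inhibitor IkB alpha and is itself induced by NF-kB, fell from 65.5 ± 2.15 to 20.7 ± 0.39 FPKM (-1.66, limma adjusted p = 5.8e-11). It too was in a group that the study picked from these libraries. RELB, a subunit of the non-canonical pathway, fell from 7.57 to 1.67 FPKM (-2.13, limma adjusted p = 7.9e-08), and its partner NFKB2 from 23.3 to 9.02 FPKM (-1.36, limma adjusted p = 4.2e-09). NFKBIZ, a co-activator at the IL6 promoter, fell from 10.1 to 3.30 FPKM (-1.59, limma adjusted p = 6.6e-09). RELA, the main activating subunit, was at 48.6 and 56.9 FPKM (-0.23), and NFKB1 at 21.5 and 20.8 FPKM was not called (limma adjusted p = 0.31). NFKBIA and NFKBIE, the latter at -2.18, encode inhibitors, and NFKBIA, RELB and NFKB2 are themselves known targets of the pathway.

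The C/EBP genes had 3 of 4 lower, with CEBPB, an activator of IL6, at 24.4 FPKM in 231-BR and 43.5 FPKM in MDA-MB-231 (-0.83, limma adjusted p = 1.5e-08). The AP-1 genes went the other way on balance, with 2 of 8 lower and 6 higher. Of these 6, 5 stayed called higher under median-of-ratios scaling and 4 under quantile normalization. For both groups the shares over all genes tested were 32.9% lower and 44.4% higher without further scaling. Genes called higher over all 13465 tested numbered 5294 under median-of-ratios scaling and 4825 under quantile normalization. FOSL1, the most abundant of them, had 406 ± 8.86 FPKM in 231-BR and 536 ± 14.3 FPKM in MDA-MB-231 (-0.40, limma adjusted p = 2.8e-07). JUND rose from 6.47 to 31.4 FPKM (2.26, limma adjusted p = 7.2e-10).

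**Figure D4:**
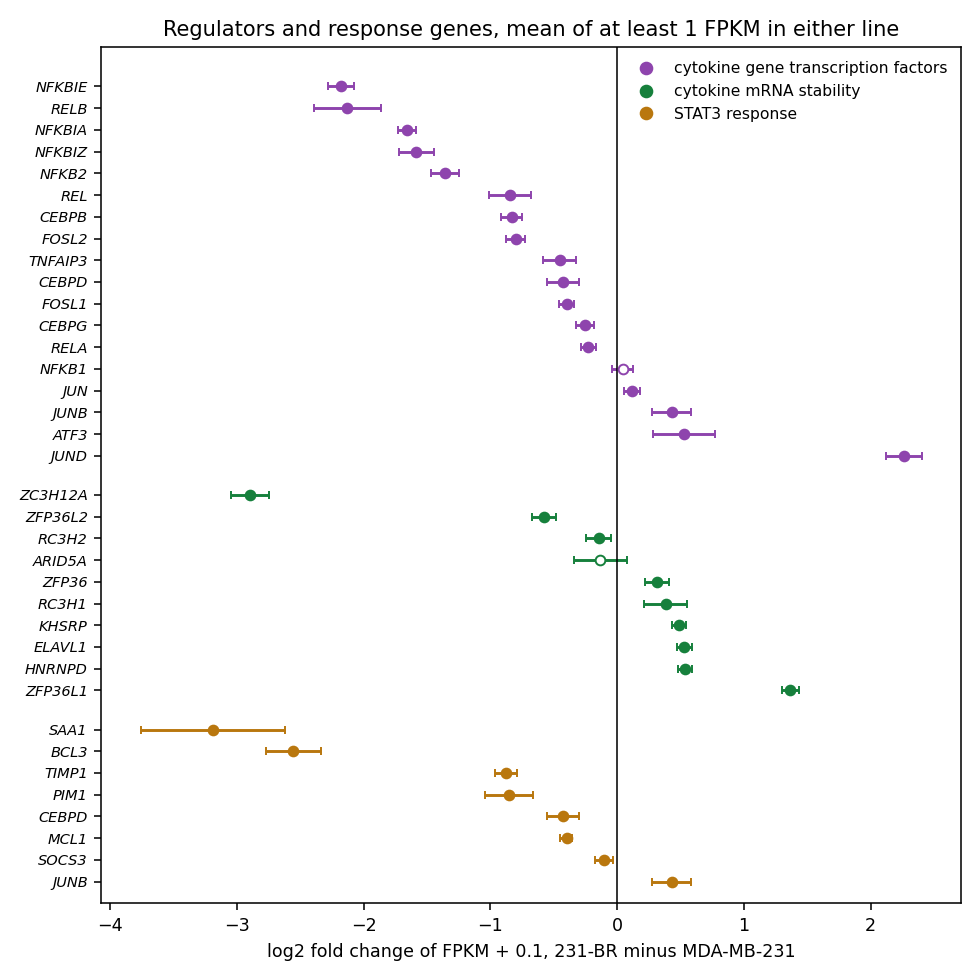
Log2 fold change of FPKM + 0.1 with its 95% confidence interval for listed NF-kB, C/EBP and AP-1 pathway, mRNA stability and STAT3 response genes that had a mean of at least 1 FPKM in either line. Filled circles have an adjusted p under 0.05. ZC3H12A (-2.90), SAA1 (-3.19) and BCL3 (-2.56) are the farthest left and JUND (2.26) the farthest right.

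Of 10 genes that set the lifetime of cytokine mRNAs, 3 were lower, 6 higher and 1 not called, beside 32.9% lower and 44.4% higher over all genes tested. Under quantile normalization 4 were lower and 5 higher, beside 5749 lower and 4825 higher of the 13465 genes tested. ZC3H12A, which encodes the RNase Regnase-1 that degrades IL6 mRNA and is itself induced by interleukin-1, fell from 13.2 ± 0.166 to 1.69 ± 0.153 FPKM (-2.90, limma adjusted p = 2.2e-10). ZFP36L1, a protein that binds ATTTA elements and promotes decay, rose from 56.8 ± 0.911 to 147 ± 4.92 FPKM (1.37, limma adjusted p = 9.6e-11). The related ZFP36 was higher (0.32) and ZFP36L2 lower (-0.58).

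Of 15 genes known to respond to STAT3, 9 were tested, and 8 of these were lower and 1 higher, beside 32.9% lower and 44.4% higher over all genes tested. The higher gene was JUNB (0.43). SOCS3, JUNB and CEBPD are also in the lists above, so these counts are not independent of the earlier ones. The median log2 fold change of the 9 was -0.86, and the counts were the same under both other scalings. Over all 13465 genes tested, 5142 were called lower under median-of-ratios scaling and 5749 under quantile normalization. The lower genes include SAA2, named here for its low level, which passed the filter only through MDA-MB-231. It had 0.02 FPKM in every 231-BR library and 0.02, 0.25 and 0.33 FPKM in the MDA-MB-231 libraries, which overlapped. SAA1, an acute phase gene, had 0.17, 0.08 and 0.17 FPKM in the 231-BR libraries and 2.36, 2.72 and 1.34 FPKM in the MDA-MB-231 libraries (-3.19, limma adjusted p = 1.2e-06). BCL3, which also belongs to the IkB family, fell from 6.23 to 0.977 FPKM (-2.56, limma adjusted p = 5.8e-09), and TIMP1, an inhibitor of matrix metalloproteinases, fell from 193 ± 10.5 to 105 ± 3.36 FPKM (-0.88, limma adjusted p = 1.6e-08). SOCS3, the feedback inhibitor of gp130, was only slightly lower, at 17.6 beside 18.9 FPKM (-0.10, limma adjusted p = 0.015). Several of these genes also respond to NF-kB or other signals, and neither secreted protein nor STAT3 phosphorylation was measured.

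The genes beside the 10 on their chromosomes were examined next. Over the 20 tested genes on either side, the median log2 fold change was lowest beside IL1A and IL1B, at -0.28, and highest beside IL24, at 0.36. A log2 fold change under -1 was found for 4.31% of all genes placed on a chromosome. Among 40 neighbours it was found for 6 beside IL1A and 6 beside IL1B, 4 beside IL24, 3 each beside LIF and CSF1, 2 beside CSF2, 1 beside IL6ST, and 0 beside IL6, IL11 and CSF3. Of the 6 beside IL1A, 5 were genes other than IL1B, so that lower genes were more frequent there than over all genes, a difference that was not tested. The neighbours of IL1A and IL1B are nearly the same genes, and these 5 are beside both, so the 2 counts describe 1 region. A log2 fold change over 1 was found for 11% of placed genes. It was found for 9 neighbours beside IL11, 8 beside IL6, 7 beside IL24 and 5 beside CSF3. The others had 4 (IL6ST), 2 (IL1A, IL1B and CSF2), 1 (LIF) and 0 (CSF1). IL1A and IL1B were each other's neighbours, and the genes tested on the IL1A side were CKAP2L, at 16.5 FPKM in 231-BR and 38.6 FPKM in MDA-MB-231 (log2 fold change -1.22, limma adjusted p = 8.4e-09), and NT5DC4, at 0.14 and 0.427 FPKM (-1.13, limma adjusted p = 1.7e-04). On the IL1B side were IL37, at 0.2 and 0.4 FPKM (-0.75), and then PSD4, which was higher in 231-BR (1.81, limma adjusted p = 9.3e-08). CSF3 lies between PSMD3 (0.06) and MED24 (-0.19), and CSF2 between ACSL6 (0.31) and P4HA2 (-0.74). Apart from IL1A and IL1B themselves, the one neighbour within 2 genes that fell past -3 was GSTM1 beside CSF1. It fell from 12.1 to 0.98 FPKM (-3.51, limma adjusted p = 3.1e-10), while GSTM3, the gene between GSTM1 and CSF1, was at -0.26.

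**Figure D5:**
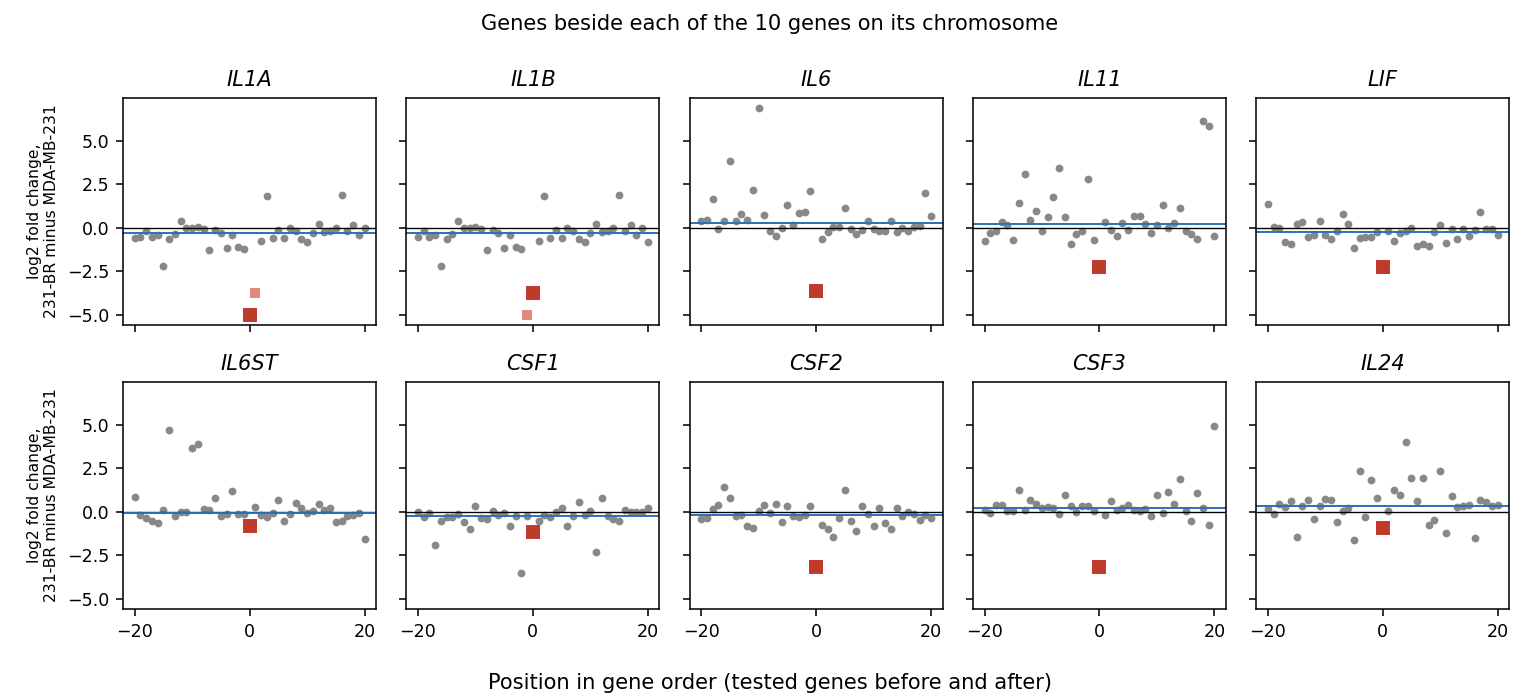
Log2 fold change, 231-BR minus MDA-MB-231, of each of the 10 genes (dark red square at position 0) and of the 20 tested genes on either side in chromosome order (grey points, with IL1A and IL1B in light red beside each other). The blue line is the median of the 40 neighbours, which ran from -0.28 to 0.36, and 8 of the 10 squares lie under -1.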

How the data were processed

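Poly(A) RNA of 3 libraries of 231-BR and 3 of MDA-MB-231 cells was sequenced by the authors on a BGISEQ-500 with paired reads. The authors filtered the reads with SOAPnuke, aligned them with HISAT2 (2.0.4) and Bowtie2 (2.2.5), and used GRCh38.p12, per the submitters' processing notes. The deposited values are FPKM per gene with 2 decimals, without further normalization. The program that computed them and the use of strand are not given in the sources used here. The 17039 values in each library's own file were identical to the table of all libraries, and every sample column was used.

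The 13465 genes with a mean of at least 0.1 FPKM over the 6 libraries were fitted as log2(FPKM + 0.1) with a term for the line in R 4.3.3 and limma 3.58.1 (lmFit, eBayes with trend), with Benjamini-Hochberg adjustment over all of them. A test on counts was not possible from FPKM. The fit was checked on simulated data. The text names all 10 genes and, in lists of related genes, ligands, receptors, inhibitors, transcription factors, mRNA stability and STAT3 response genes with a mean of at least 1 FPKM in either line, except where another choice is stated. Members and lists were chosen with earlier results of these data known. Gene positions and 3 prime UTRs came from GENCODE 29 and promoters from RefSeq (GRCh38.p14), of which 7 of the 10 genes were matched. In gene order, 13221 of the tested genes were placed. Searches and plots used Python 3.11.15, pandas 2.3.3 and matplotlib 3.10.9. Alternatives were a replicate block, pseudocounts of 0.01 and 1, quantile normalization, median-of-ratios scaling, no filter, a filter at 1 FPKM, eBayes with no trend, leaving out each library, a log2 fold change of 1.5, and a mean of at least 1 FPKM in both lines.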

Additional observations from a re-analysis of the deposited data

How the results depend on the processing

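All 10 genes stayed lower in 231-BR with an adjusted p under 0.05 in the limma fit under every alternative, the highest adjusted p being 0.000173, without the trend. The count past a log2 fold change of -1 was 8 to 9 of the 10 with a library left out and under the other pseudocounts, filters and scalings, and 7 past -1.5. It was 4 (IL11, LIF, CSF1 and CSF3) when a mean of at least 1 FPKM in both lines was required as well. IL24 passed -1 under median-of-ratios scaling (-1.01), quantile normalization (-1.30) and without MDA-MB-231 replicate 2 (-1.02). A pseudocount of 1 drew the low genes toward 0, IL1A to -3.50 and IL6 to -2.16, while 0.01 gave -5.32 and -4.00. Quantile normalization moved the median of all genes from 0.08 to -0.06 and the calls from 5973 higher and 4433 lower to 4825 higher and 5749 lower, and the median of the 10 genes from -2.72 to -2.89.

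The replicate block left 10 genes called and 8 past -1. Same-numbered libraries did not deviate together (correlations of 0.015, -0.018 and -0.027 across genes), so no pairing by number was visible. These values cannot show whether same-numbered libraries were handled together. With FPKM alone, the counting error of the genes under 1 FPKM in 231-BR is unknown, and groups of 3 were not tested for outlying libraries.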
